A study of Mus musculus with 6 samples.

Results

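Aquaporins are membrane channels that let water cross cell membranes along an osmotic gradient. The protein folds around a narrow pore whose selectivity rests in part on paired asparagine-proline-alanine boxes, and some members, the aquaglyceroporins, also pass glycerol and other small uncharged solutes. In the gut, epithelial aquaporins take part in fluid absorption and secretion, and the fluid load of a crypt is set by salt transporters that move ions ahead of the water.

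The aquaporins described here are Aqp1, Aqp3, Aqp4, Aqp7, Aqp8 and Aqp11, taken by gene name from a table of 28752 mouse genes, so 6 of 28752. They were selected on family membership by name, and chosen by someone who already knew their counts with circEZH2_005 and with the vector, so those values are given as a description, with no test. Of the 12 aquaporin genes looked up, 10 were listed.

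The samples were titled intestinal crypt stem cells. In the authors' general methods, Lgr5+ intestinal stem cells (ISCs) came from mice that carry green fluorescent protein at Lgr5, a receptor gene of crypt stem cells. There, the cells were grown into crypt-villus organoids. The 3 vector samples, labelled WT, and the 3 samples labelled circEZH2_005 overexpression (circEZH2_005 is a circular RNA of the Ezh2 gene, delivered by adenovirus) were all exposed to hypoxia/reoxygenation (H/R) after 72 h of infection, with 4 h in 2% O2, 5% CO2 and 93% N2. No sample kept in normal oxygen was analysed here, so each value describes cells under H/R. The labels do not say whether the 3 samples of a group came from separate mice or cultures, and p-values then measure only the spread between these samples, which may be technical.

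Each sample held 71506487 to 79919893 counts, and 18348 genes passed the filter on low counts, all 6 aquaporins among them. At this depth 3 counts in a sample correspond to 0.0377 to 0.0419 CPM (the count divided by the scaled library size). Vector sample 2 stood nearer to the circEZH2_005 samples than the other vector samples did: across genes its log2 CPM correlated at 0.965 to 0.971 with them and at 0.970 with vector samples 1 and 3. Epithelial markers were abundant in all 6 samples, at a summed 7139 to 7575 CPM with the vector and 8647 to 10806 CPM with circEZH2_005. Crypt stem cell markers summed to 1624 to 2481 and 1130 to 1697 CPM, and enterocyte markers to 10624 to 12574 and 10901 to 20048 CPM, so the cultures held RNA of differentiated cells beside that of stem cells. These are bulk samples, in which fewer cells of a type and less RNA per cell cannot be told apart. Counts per list are given below, and their background is as follows. Of the 18348 tested genes, 4346 had an unadjusted p under 0.05 by edgeR. DESeq2, run on all 28752 listed genes, called 1588 higher and 701 lower with circEZH2_005.

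The pore boxes are printed from the coding transcripts of the GENCODE M21 annotation (GRCm38). Each line gives 60 coding bases from 5′ to 3′, with the 9 bases of the asparagine-proline-alanine box in capitals. The box was searched in frame as AACCCNGCN or AATCCNGCN on the coding strand. The windows are those of Aqp1 at chr6:55336692-55336751 and chr6:55345813-55345872 (plus strand, exons 1 and 3), Aqp3 at chr4:41094792-41095157 and chr4:41093814-41093873 (minus strand, exons 2 to 3 and 5), Aqp7 at chr4:41035584-41036026 and chr4:41034786-41034845 (minus strand, exons 4 to 5 and 7), Aqp8 at chr7:123462808-123464237 and chr7:123466587-123466646 (plus strand, exons 2 to 3 and 5) and Aqp11 at chr7:97729026-97729085 (minus strand, exon 2). Where a window spans 2 exons, the intron between them is left out of the printed bases.
Aqp1 first box: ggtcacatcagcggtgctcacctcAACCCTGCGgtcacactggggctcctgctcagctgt
Aqp1 second box: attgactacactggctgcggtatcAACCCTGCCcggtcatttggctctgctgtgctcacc
Aqp8 first box: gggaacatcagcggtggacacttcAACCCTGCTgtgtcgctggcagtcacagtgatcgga
Aqp8 second box: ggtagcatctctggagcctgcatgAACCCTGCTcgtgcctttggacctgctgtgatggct
Aqp3 first box: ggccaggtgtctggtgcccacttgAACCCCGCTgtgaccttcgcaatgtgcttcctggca
Aqp3 second box: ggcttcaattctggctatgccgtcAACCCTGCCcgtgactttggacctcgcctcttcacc
Aqp7 first box: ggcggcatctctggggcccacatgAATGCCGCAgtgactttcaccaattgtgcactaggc
Aqp7 second box: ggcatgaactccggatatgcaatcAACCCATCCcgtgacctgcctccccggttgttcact
Aqp11 box: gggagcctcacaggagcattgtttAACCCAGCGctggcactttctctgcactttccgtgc

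Aqp1, Aqp3 and Aqp8 each carried 2 full boxes and Aqp11 carried 1. Aqp7 carried 0, and its lines show the bases that aligned with the boxes of Aqp3. Those bases spell asparagine-alanine-alanine at the first position and asparagine-proline-serine at the second. Among the 5 genes whose coding sequences were compared, Aqp3 and Aqp7 were the closest pair, with 56.8% identical bases over 858 aligned bases, and the pair Aqp7 and Aqp11 was the most distant at 39.0%. Aqp3 and Aqp7 are also neighbours on chromosome 4, both on the minus strand, with 44582 bases between them and no tested gene in the gap. The sequence of Aqp4 was not used here.

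With circEZH2_005, Aqp4 was lower and Aqp7 was higher in all 3 samples than in any vector sample. Aqp4 went from a mean of 10.6 to 4.05 FPKM (fragments per kilobase of gene length, scaled to library size) and Aqp7 from 0.806 to 2.57 FPKM. For Aqp1, Aqp3, Aqp8 and Aqp11 the groups overlapped. Over all 18348 tested genes, 16.4% had no overlap between the groups with circEZH2_005 higher and 14.2% with circEZH2_005 lower. Nothing is read from the members' counts of 1 and 1 beside those shares, since the members were chosen with these values known.

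**Figure D1:**
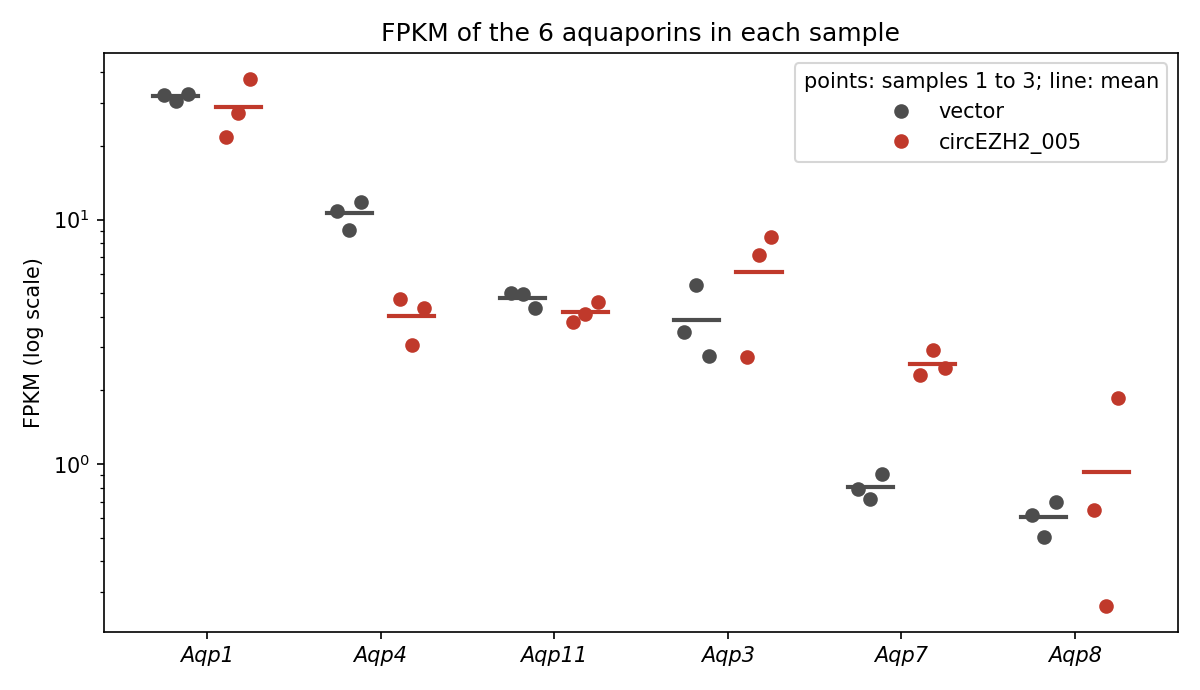
FPKM of each aquaporin (log axis) in the 3 vector samples (grey points) and the 3 circEZH2_005 samples (red points), with the group mean as a line. Aqp4 lies between 9.10 and 11.8 with the vector and between 3.08 and 4.74 with circEZH2_005, Aqp7 lies between 0.719 and 0.909 and between 2.32 and 2.94, and the points of the other 4 genes overlap.

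Aqp1, a water channel of many epithelia, endothelium and red cells, was the most abundant member (chr6:55336432-55348555, plus strand, ENSMUSG00000004655). It measured 32.2, 30.6 and 32.7 FPKM in vector samples 1 to 3 and 21.8, 27.2 and 37.4 FPKM in circEZH2_005 samples 1 to 3. The circEZH2_005 samples lay on both sides of the vector samples, with sample 1 lowest and sample 3 highest. The means were 31.8 ± 1.14 and 28.8 ± 7.96 FPKM (SD, n = 3 each), and the log2 fold change from the counts was -0.05 with a standard error (SE) of 0.20. The groups differed more in their spread than in their means, with a coefficient of variation of the CPM of 4.56% with the vector and 31.2% with circEZH2_005. The difference in spread was not tested. Aqp1 made up 59.6% to 63.3% of the summed FPKM of the 6 members in every sample.

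Endothelial and erythroid markers were read beside Aqp1, because those cells are rich in it. All 8 endothelial markers were listed, 4 of them were tested, and their CPM summed to 2.64 to 4.55 with the vector and 5.54 to 7.90 with circEZH2_005, against a mean of 90.4 and 87.6 CPM for Aqp1 itself. Cdh5, Kdr, Tie1 and Erg, which define endothelium, had at most 19 counts in any sample. Tek had 38 to 107 counts over the 6 samples, Egfl7 50 to 129 and Vwf 10 to 70, with overlapping groups for each. Pecam1, an adhesion molecule of endothelium and of leukocytes, rose with circEZH2_005 (log2 fold change 1.93, SE 0.36, edgeR adjusted p = 0.038), a call that held only without vector sample 2 among the 6 fits that leave out a sample (highest adjusted p 0.133). The 5 erythroid markers, globin genes among them, summed to 16.6 to 27.2 and 7.43 to 17.3 CPM, and 0 of the 4 tested passed by edgeR, where 2 had an unadjusted p under 0.05 and DESeq2 called 2.

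Aqp4, a water channel of high capacity known from brain astrocytes and also present at the basolateral side of crypt cells in the small intestine, was the second member in the vector samples (chr18:15389496-15410982, minus strand, ENSMUSG00000024411). Its counts were 5372, 4524 and 6225 with the vector and 2522, 1713 and 2284 with circEZH2_005. In FPKM these were 10.8, 9.10 and 11.8 against 4.74, 3.08 and 4.33. The lowest vector sample stood above the highest circEZH2_005 sample. The means were 71.4 ± 9.79 and 28.9 ± 5.07 CPM (SD, n = 3 each), the log2 fold change was -1.31 with an SE of 0.16, and the vector level was 2.47 times the circEZH2_005 level. With each sample left out in turn, the log2 fold change stayed between -1.41 and -1.17. An annotated gene on the other strand overlaps Aqp4 and had at most 19 counts in any sample.

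The marker lists nearest to Aqp4 were those of glia and of crypt stem cells. All 4 glial markers were listed, at a sum of 1.77 to 2.10 CPM with the vector and 1.31 to 1.70 CPM with circEZH2_005, and Sox10, a factor that defines glia, had at most 3 counts in a sample. Of the 5 stem cell markers, 2 fell with circEZH2_005, 0 rose and 3 did not pass, while 3 had an unadjusted p under 0.05 and DESeq2 called 3. Lgr5 fell by 0.88 on the log2 scale (SE 0.17, edgeR adjusted p = 0.043) and Smoc2, a secreted protein of crypt base cells, fell by 0.81 (SE 0.11, edgeR adjusted p = 0.020). Of those that did not pass, Ascl2 had a log2 fold change of -0.68 with no overlap (edgeR adjusted p = 0.092). Olfm4 had -0.42 and Axin2, in the other direction, 0.31, both with overlapping groups (edgeR adjusted p = 0.314 and 0.219). On leaving out single samples, Lgr5 passed only without vector sample 2 (highest adjusted p 0.166) and Smoc2 only without vector sample 2 or circEZH2_005 sample 1 (highest 0.103), and both stayed lower. Paneth cell markers summed to 3379 to 5900 CPM with the vector and 2102 to 3676 CPM with circEZH2_005. The part of stem cell markers in the difference of Aqp4 was not tested.

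Aqp8, which passes water, ammonia and hydrogen peroxide and is best known from absorptive cells of the colon, was the least abundant member (chr7:123462291-123468004, plus strand, ENSMUSG00000030762). It had 78, 64 and 95 counts with the vector and 88, 38 and 249 counts with circEZH2_005. In FPKM the values were 0.617, 0.505 and 0.701 against 0.651, 0.264 and 1.86. The circEZH2_005 group held both the lowest and the highest of the 6 samples. Its log2 fold change of 0.69 had an SE of 0.63 and rested on circEZH2_005 sample 3, since it was -0.37 without that sample. Of the 4 colon epithelium markers looked up, 3 were listed, and they summed to 88.2 to 170 CPM with the vector and 95.6 to 127 CPM with circEZH2_005, against 478 to 669 and 926 to 1057 CPM for the 5 small intestine markers. Most of the colon sum was Car4, at a mean of 132 and 105 CPM. The small intestine markers went different ways. Ada and Fabp6 had log2 fold changes of 1.27 and 1.55, Gata4 and Slc10a2 of -0.04 and -0.01, and Onecut2 of -0.40.

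Among the aquaglyceroporins, Aqp3, a basolateral channel for water, glycerol and hydrogen peroxide, had the wider spread (chr4:41092722-41098183, minus strand, ENSMUSG00000028435). It measured 3.48, 5.42 and 2.76 FPKM with the vector and 2.74, 7.13 and 8.45 FPKM with circEZH2_005. Samples 2 and 3 with circEZH2_005 stood above all vector samples, and sample 1 stood with the lowest vector sample. The means were 3.89 ± 1.37 and 6.11 ± 2.99 FPKM (SD, n = 3 each), and the log2 fold change of 0.77 (SE 0.44) moved between 0.45 and 1.14 on leaving out single samples.

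Aqp7, the glycerol channel through which fat cells release the glycerol of hydrolysed triglyceride, showed the opposite picture of low counts and tight groups (chr4:41033074-41048139, minus strand, ENSMUSG00000028427). Its counts were 178, 163 and 218 with the vector and 560, 742 and 591 with circEZH2_005. In FPKM the values were 0.791, 0.719 and 0.909 against 2.32, 2.94 and 2.47. The lowest circEZH2_005 sample stood far above the highest vector sample. The means were 2.48 ± 0.302 and 8.42 ± 1.47 CPM (SD, n = 3 each), and the log2 fold change was 1.77 with an SE of 0.20, a fold change of 3.40. With each sample left out in turn it stayed between 1.63 and 1.88. Apart from Aqp3, whose log2 fold change is given above, the 5 tested genes within 100 kb of Aqp7 had log2 fold changes between -0.36 and 0.04, and 0 of the 5 passed by edgeR's adjusted p, where 1 had an unadjusted p under 0.05 and DESeq2 called 1.

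Fat cell markers were read beside Aqp7. All 5 were listed and 4 tested, and their CPM summed to 18.5 to 20.4 with the vector and 39.1 to 49.8 with circEZH2_005. Nearly all of that sum was Cidec, a lipid droplet protein also expressed outside fat, which rose from a mean of 18.6 to 43.5 CPM (log2 fold change 1.23, SE 0.14, edgeR adjusted p = 0.013). Adipoq, Plin1 and Lep, which define fat cells, had at most 36 counts in any sample, and Adipoq and Plin1 had 0 in vector samples 1 and 2. Fabp4, a fatty acid binding protein of fat cells and other cells, had 5, 8 and 149 counts with the vector and 162, 130 and 178 with circEZH2_005, so that the groups overlapped in vector sample 3 (log2 fold change 1.58, SE 1.04, edgeR adjusted p = 0.408). Of the 7 enterocyte markers, 1 rose, Apoa4, an apolipoprotein of chylomicrons (log2 fold change 0.91, SE 0.15, edgeR adjusted p = 0.028), and 0 fell. Of the same 7, 5 had an unadjusted p under 0.05 and DESeq2 called 4. Lct, the lactase gene, Fabp2, a fatty acid binding protein, and Apoa1, an apolipoprotein, had log2 fold changes of 1.45, 0.97 and 0.86, with no overlap between the groups and an edgeR adjusted p of 0.057, 0.062 and 0.057. The remaining enterocyte markers, Sis, Fabp1 and Alpi, had log2 fold changes of -0.29, -0.37 and 0.34. Their groups overlapped (edgeR adjusted p = 0.579, 0.470 and 0.199), as did those of the summed list. Of the 6 fits that leave out a sample, Cidec passed in 3 and Apoa4 in 2, with adjusted p-values up to 0.069 and 0.138, both without vector sample 3. The part of these cells in the difference of Aqp7 was not tested.

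The promoter of Aqp7 is printed because Aqp7 is known, in fat cells, as a target of the nuclear receptor PPAR gamma, whose binding element is built from half-sites spelled AGGTCA. RefSeq (GRCm38.p6) gives Aqp7 2 start sites with overlapping windows, and the window shown, chr4:41047913-41048212 on the minus strand, runs from 250 bases before the downstream start to 50 bases after it. Capitals mark the half-sites found on either strand.
Aqp7 promoter: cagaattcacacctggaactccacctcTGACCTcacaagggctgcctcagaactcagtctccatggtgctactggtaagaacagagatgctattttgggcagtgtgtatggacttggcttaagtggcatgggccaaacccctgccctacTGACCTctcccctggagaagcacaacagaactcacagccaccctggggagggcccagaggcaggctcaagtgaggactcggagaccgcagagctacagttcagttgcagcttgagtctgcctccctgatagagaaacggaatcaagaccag

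The window held 2 half-sites, at positions -223 and -101 from the start, both as TGACCT, the reverse complement. They do not lie next to each other, and whether either is part of a receptor element was not tested. Of the 2 Aqp7 windows, the one shown holds more half-sites. The upstream window holds 1, at -49 from its own start, which is the same site as -223 here. At least 1 half-site occurs in 16.3% of the 32851 mouse promoter windows of the same length, in the promoter of Aqp11 as well as both Aqp7 windows, and in none of the windows of Aqp1, Aqp3 and Aqp8. Other motifs were searched on both strands in the same way. The core of the hypoxia element, ACGTG (19.6% of all windows), was found in Aqp8 at a place where it overlaps its own reverse complement. The core of the tonicity element, TGGAAA (21.4%), was found in the upstream Aqp7 window and TATAAA (13.6%) in Aqp3, while CCAAT (37.4%) and TGANTCA (7.81%) were found in none of the 6 windows of the 5 members searched.

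Aqp11 is an unorthodox member of the endoplasmic reticulum membrane (chr7:97724006-97738289, minus strand, ENSMUSG00000042797). Among the members it had the smallest SD of log2 CPM pooled over the groups, at 0.166. It measured 5.03, 4.94 and 4.35 FPKM with the vector and 3.83, 4.09 and 4.59 FPKM with circEZH2_005. In FPKM the groups overlapped in 1 circEZH2_005 sample, sample 3, which lay above vector sample 3. In CPM the overlap was wider, with 52.0, 49.7 and 44.3 for the vector and 38.7, 46.3 and 51.0 for circEZH2_005. There, circEZH2_005 samples 2 and 3 lay above vector sample 3, and sample 3 also above vector sample 2. The log2 fold change was -0.10 with an SE of 0.12.

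**Figure D2:**
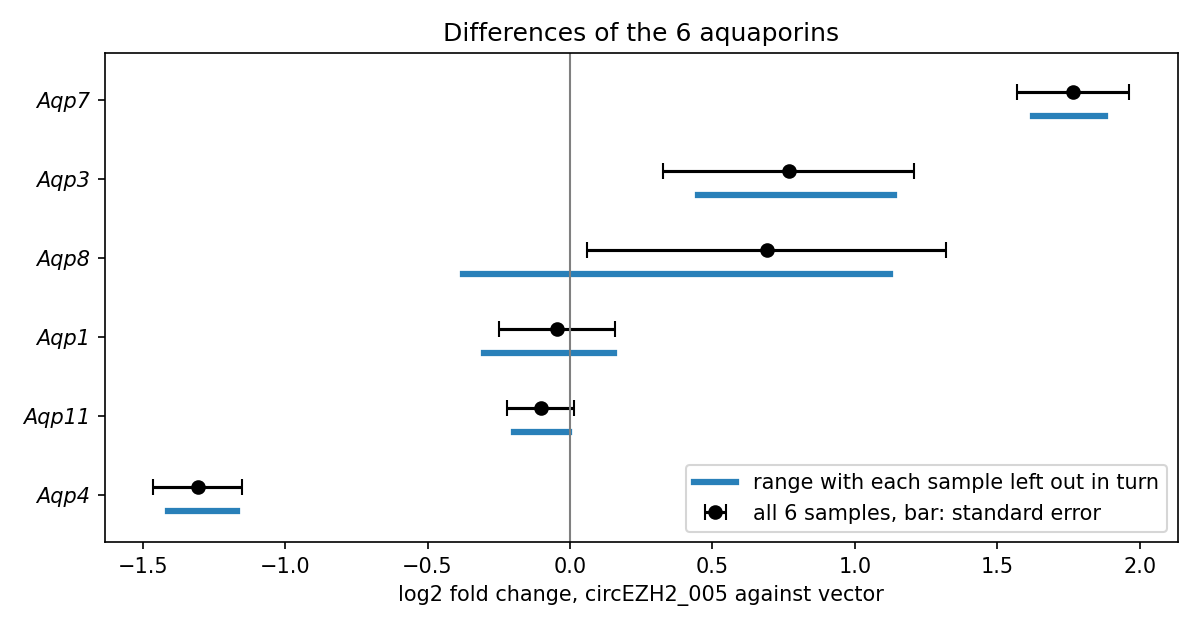
Log2 fold change of each aquaporin, circEZH2_005 against vector, from the edgeR fit (black point, bar for 1 standard error) and the range of that value with each of the 6 samples left out in turn (blue line). Aqp7 (1.77) and Aqp4 (-1.31) keep their side of 0 and stay narrow, Aqp3 stays above 0, and the blue lines of Aqp8 and Aqp1 cross 0.

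The median log2 fold change of the 6 members was 0.32, beside 0.00 over all tested genes. Within the circEZH2_005 group the samples held the same places for several members. In CPM, sample 3 was the highest of its group for 5 of the 6 members, Aqp7 being the exception (for Aqp4 the FPKM of sample 1 was higher), and sample 1 was the lowest for Aqp1, Aqp3, Aqp7 and Aqp11. The summed FPKM of the 6 members was 53.0, 51.2 and 53.3 with the vector and 36.0, 44.7 and 59.1 with circEZH2_005, so the sums of the circEZH2_005 samples lay on both sides of the vector samples. The ratio of Aqp4 to Aqp7 in FPKM was 13.7, 12.7 and 13.0 with the vector and 2.05, 1.05 and 1.76 with circEZH2_005.

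In order of FPKM, the vector samples had Aqp1, Aqp4, Aqp11, Aqp3, Aqp7 and Aqp8, and only Aqp11 and Aqp3 overlapped among neighbours. With circEZH2_005 the order was Aqp1, Aqp3, Aqp11, Aqp4, Aqp7 and Aqp8, where Aqp3 overlapped with Aqp11 and Aqp11 with Aqp4, while Aqp4 did not overlap with Aqp7. Aqp4 thus went from a place of its own to a group of 3 genes that could not be ordered.

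These orders depend on the length by which a count is divided. For all 6 members the length implied by the deposited count and FPKM was 1.11 to 1.12 times the joined length of all annotated exons, a near constant ratio, so the FPKM were per joined exons rather than per transcript. For Aqp1 the joined exons equal the coding transcript, at 2627 bases. For Aqp11 the joined exons are 9418 bases and the coding transcript is 3737 bases. Per coding transcript, a length chosen after seeing the data, Aqp11 would be at 12.0 FPKM with the vector and 10.5 with circEZH2_005, beside 13.1 and 4.99 for Aqp4. Aqp11 would then stand second with circEZH2_005, above Aqp3 at 6.33. Fold changes between the groups do not depend on the length.

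**Figure D3:**
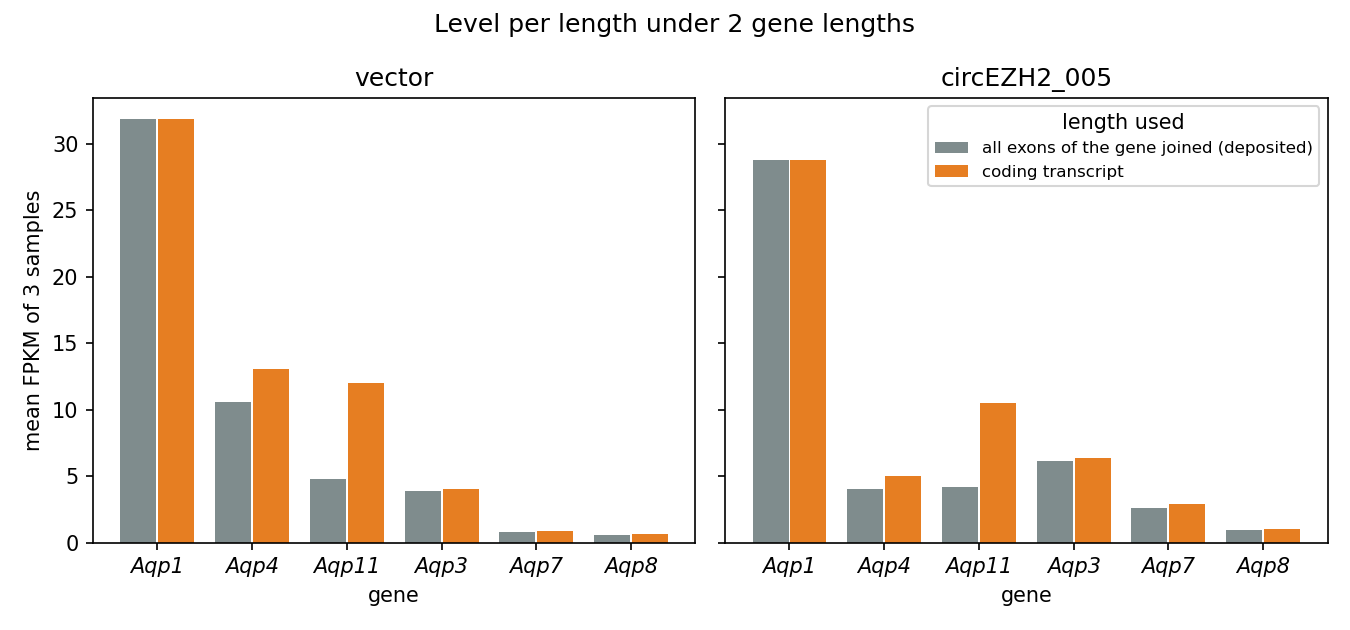
Mean FPKM of 3 samples for each aquaporin, in the vector (left) and circEZH2_005 (right) groups, by the length of all exons joined as deposited (grey bars) and by the length of the coding transcript (orange bars). Aqp11 moves from 4.77 to 12.0 with the vector and from 4.17 to 10.5 with circEZH2_005, while Aqp1 stays at 31.8 and 28.8.

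The other listed aquaporins were at or near the limit of detection. Mip, Aqp5, Aqp9 and Aqp12 were listed but not tested, and Aqp2 and Aqp6 were looked up and not listed under those names. Aqp9, a further aquaglyceroporin, had 8, 6 and 10 counts with the vector and 19, 8 and 13 with circEZH2_005. Aqp5, a water channel of glands, had 0 counts in every vector sample and 12, 4 and 0 counts with circEZH2_005. Mip, the lens member, had at most 15 counts and Aqp12, a pancreatic member, had 3 counts in 1 vector sample and 0 in the others.

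For each member the 3 genes with the most similar pattern were found by the root mean square (RMS) distance between their log2 CPM, each centred on its own mean, over 6 samples. The search covered 11597 genes whose mean reached 1 FPKM. Aqp11 had the closest partners, Tmem179b at a distance of 0.041 and Ndufa2 (a subunit of respiratory complex I) at 0.042 among them. Aqp1 was followed by Tmem64 at 0.060, Cat (catalase, which breaks down hydrogen peroxide) at 0.077 and Gm2260 at 0.086. Aqp4 was followed by Slc16a12 at 0.115, a carrier of the monocarboxylate transporter family, Wtip at 0.149 and F3 (tissue factor, which starts coagulation) at 0.153. Aqp7 was followed by Sprr2a3, a small proline-rich protein, at 0.106, Hsd17b2, a steroid dehydrogenase, at 0.135 and Lama3, a laminin chain of epithelial basement membranes, at 0.142. The partners of Aqp3 were more distant (Tppp 0.215, Unc93a2 0.222 and Rdh9 0.249), and those of Aqp8 the most distant (Gm5619 0.359, Cyp1a1 0.407 and Gm5781 0.416). The 6 samples of 2 groups make these distances a description only.

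The genes that work beside aquaporins were taken from 5 lists, of which 69 genes were tested. By edgeR's adjusted p under 0.05, 2 rose and 3 fell, against 2.69% higher and 0.986% lower over all tested genes. The counts at an unadjusted p under 0.05 stand beside 4346 of all 18348 tested genes. Those of DESeq2 stand beside its 1588 higher and 701 lower of 28752 genes. Nothing is read from these list counts. All 5 calls were lost, with no change of direction, without vector sample 1 or without vector sample 3, where the edgeR adjusted p was 0.076 and 0.085 for Slc9a2, 0.096 and 0.108 for Slc5a3, 0.122 and 0.129 for Lipe, 0.068 and 0.122 for Hspa4l, and 0.134 and 0.129 for Prdx6. Without circEZH2_005 sample 2, Slc9a2 alone remained, and without circEZH2_005 sample 3, Slc9a2 and Slc5a3. In the list of glycerol and triglyceride handling, which supplies and uses the glycerol that Aqp7 and Aqp3 pass, 1 of 12 genes rose, 0 fell and 11 did not pass, with a median log2 fold change of 0.35, while 5 had an unadjusted p under 0.05 and DESeq2 called 4. The gene that rose was Lipe, hormone-sensitive lipase, at 6.29, 6.81 and 6.28 FPKM with the vector and 9.84, 14.3 and 12.3 FPKM with circEZH2_005 (log2 fold change 1.01, SE 0.16, edgeR adjusted p = 0.028). The groups of Lipe did not overlap. Gpd1, which makes glycerol-3-phosphate and was the most abundant gene of the list, had a log2 fold change of -0.22 (edgeR adjusted p = 0.522), and Gk, the kinase that traps glycerol in the cell, had 0.47 (edgeR adjusted p = 0.218).

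In the list of salt and fluid transport, whose ions water follows through Aqp1, Aqp4 and Aqp8, 1 of 19 tested genes rose, 0 fell and 18 did not pass, with a median of -0.08. The count of genes that fell depended on the method: it was 5 by DESeq2 (with 2 higher), 3 by limma with either pseudocount and at a mean of at least 2 FPKM, 2 with median-of-ratios scaling and 4 without vector sample 2, and 7 of the 19 had an unadjusted p under 0.05 by edgeR. Slc9a2, a sodium/proton exchanger, rose from 9.77, 12.5 and 10.1 FPKM to 23.9, 32.2 and 25.4 FPKM (log2 fold change 1.43, SE 0.17, edgeR adjusted p = 0.013). The 3 circEZH2_005 samples of Slc9a2 stood well above the vector samples. For Cftr, the chloride channel of crypt secretion, for Slc12a2, which loads chloride into the cell, and for Kcnq1, a potassium channel, the log2 fold changes were -0.47, -0.58 and -0.54, with no overlap between the groups and an edgeR adjusted p of 0.051 each, so none of the 3 passed. Slc26a3 and Kcne3 were also lower without overlap, at -0.63 and -0.46 (edgeR adjusted p = 0.060 and 0.118). Slc9a3 was higher without overlap, at 0.51 (edgeR adjusted p = 0.094). Of the 19 tested genes, 2 had no overlap with circEZH2_005 higher and 5 with it lower, against 16.4% and 14.2% over all tested genes. These genes, apart from Slc9a2, were chosen after their values were seen.

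Of 13 tested genes of the osmotic response, 0 rose, 2 fell and 11 did not pass, with a median of -0.03, while 3 had an unadjusted p under 0.05 and DESeq2 called 2. Slc5a3, the carrier of the osmolyte myo-inositol, measured 1.16, 1.19 and 1.43 FPKM with the vector and 0.595, 0.555 and 0.648 FPKM with circEZH2_005 and fell by 0.98 on the log2 scale (SE 0.14, edgeR adjusted p = 0.022). Hspa4l, a heat shock protein also induced by osmotic stress, fell by 0.60 (SE 0.09, edgeR adjusted p = 0.024). Nfat5, the transcription factor of the tonicity response, had a log2 fold change of -0.03 (edgeR adjusted p = 0.891), and Slc6a6, the taurine carrier and the most abundant gene of the list, had -0.29 (edgeR adjusted p = 0.192).

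Hydrogen peroxide is carried by Aqp3 and Aqp8, and of 16 genes that make or remove it 0 rose, 1 fell and 15 did not pass, with a median of -0.07, while 7 had an unadjusted p under 0.05 and DESeq2 called 3. Prdx6, a peroxidase, measured 77.3, 68.2 and 83.6 FPKM with the vector and 50.6, 46.4 and 46.7 FPKM with circEZH2_005 and fell by 0.59 on the log2 scale (SE 0.10, edgeR adjusted p = 0.030). Txn1, thioredoxin and the most abundant of the list, had a log2 fold change of -0.02 (edgeR adjusted p = 0.909). Of 9 genes that anchor aquaporins or their neighbours to the membrane skeleton, 0 passed the edgeR test in either direction, with a median of 0.12, while 3 had an unadjusted p under 0.05 and DESeq2 called 3. Slc9a3r1, a scaffold protein of the apical membrane and the most abundant of the list, had a log2 fold change of 0.73 (edgeR adjusted p = 0.099).

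**Figure D4:**
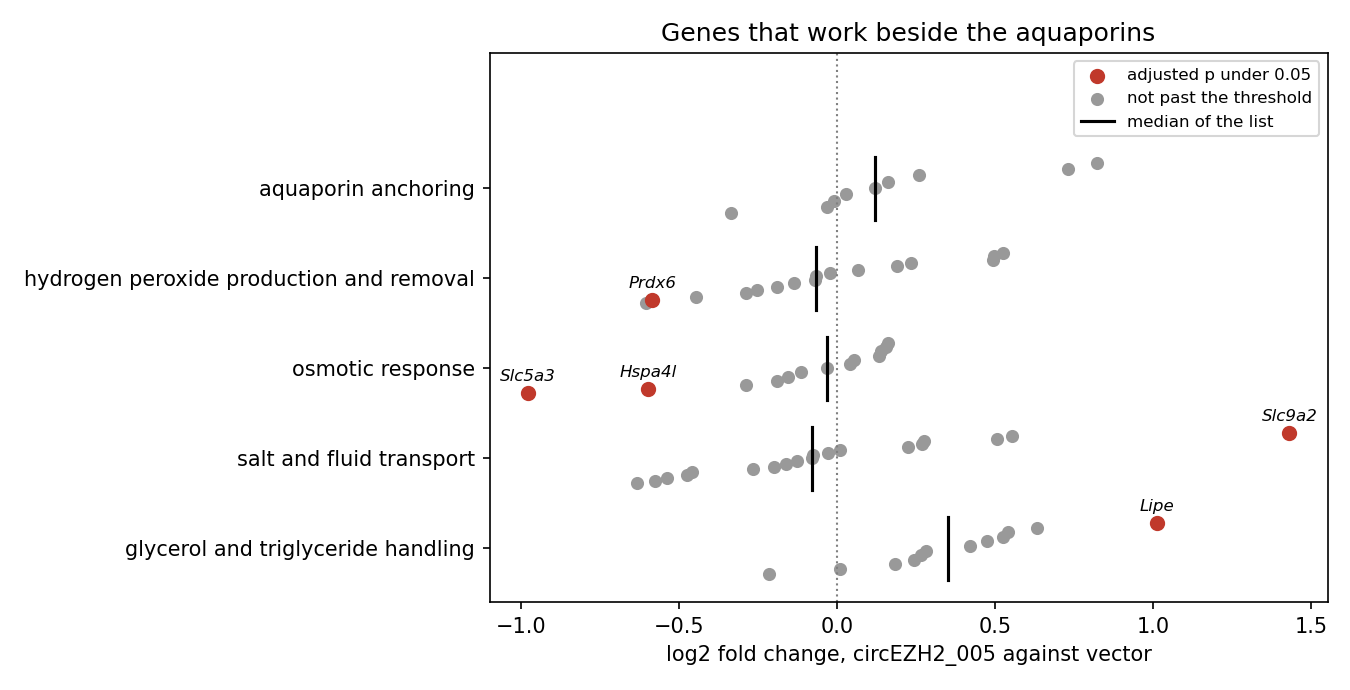
Log2 fold change, circEZH2_005 against vector, of the 69 tested genes of 5 lists (points), with the median of each list as a black line. Red points passed an adjusted p of 0.05 by edgeR: Lipe (1.01) and Slc9a2 (1.43) to the right of 0, and Slc5a3 (-0.98), Hspa4l (-0.60) and Prdx6 (-0.59) to the left.

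The remaining marker lists were read for cells that could carry aquaporins into the cultures. Goblet cell markers summed to 4532 to 6046 CPM with the vector and 5200 to 6646 CPM with circEZH2_005. Leukocyte markers summed to 53.3 to 129 CPM with the vector and 163 to 272 CPM with circEZH2_005, with no overlap, while 0 of the 7 passed singly by edgeR's adjusted p, 2 had an unadjusted p under 0.05 and DESeq2 called 1. Fibroblast and smooth muscle markers summed to 4.81 to 7.99 and 2.81 to 10.7 CPM. Of the epithelial and small intestine markers, Krt8 and Ada rose, each a call that held in 2 of the 6 fits that leave out a sample (adjusted p up to 0.154 and 0.106). The part of these lists in the differences of Aqp4 and Aqp7 was not tested.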

How the data were processed

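RNA from 6 samples was sequenced after selection with oligo (dT) beads, and groups and replicate numbers were taken from the sample labels. The authors deposited a raw count and an FPKM value per gene and sample in a single table. The columns named as a negative control were read as the vector samples, since the labels give no other control, and 0 sample columns were left unused. The submitters' processing notes name cutadapt 1.9, HISAT2 2.0.4, StringTie 1.3.4d, DESeq2 and the mm10 build, with no role or order. The annotation, strand setting and filters used by the authors are not given in the sources used here, and without strand, reads of overlapping genes on opposite strands cannot be told apart. Gene positions of the 6 members matched GENCODE M21 (GRCm38).

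The members and gene lists were chosen with earlier results of these data known. Counts were filtered with filterByExpr, scaled by TMM and compared in edgeR 4.0.16 (R 4.3.3) with its quasi-likelihood test, with Benjamini-Hochberg adjustment over 18348 genes and a threshold of 0.05. A standard error (SE) was taken as log2 fold change over the root of the F statistic. CPM use library sizes after TMM scaling. The text names every member, in each list up to 3 genes per direction with the smallest p among those that passed and the gene of highest mean FPKM, and for each member the 3 genes of most similar pattern; genes named outside this rule are markers of a cell type or were chosen after their values were seen. Some genes that meet the rule are not reported here. The fits were tested on simulated counts with known changes of 1.5 on the log2 scale. At the threshold of 0.05, the edgeR fit recovered 114 of 180 changed genes (63.3%), and 8.8% of its calls were false. The simulated counts were drawn independently for each sample, without the likeness between real samples. These shares therefore need not hold for the real calls, which depended on single samples. The alternatives were median-of-ratios scaling, no filter, a mean of at least 2 FPKM, DESeq2 1.42.0, a replicate block, limma 3.58.1 on log2(FPKM + 1) and log2(FPKM + 0.1), and leaving out each sample. Coding sequences came from GENCODE M21 and promoters from RefSeq.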

Additional observations from a re-analysis of the deposited data

How the results depend on the processing

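Aqp4 and Aqp7 kept their direction under every alternative run, Aqp4 between -1.41 and -1.17 and Aqp7 between 0.98 and 1.88, the lowest being limma on log2(FPKM + 1), whose pseudocount is near the level of Aqp7. Aqp7 and Aqp8 were not tested at a mean of at least 2 FPKM. Aqp3 ranged from 0.45 to 1.14 and Aqp11 from -0.20 to 0.00, while Aqp1 (-0.30 to 0.15) and Aqp8 (-0.37 to 1.12 with each sample left out) changed sign in 1 alternative each. The count of genes called depended on the method. Against 493 higher and 181 lower, no filter gave 132 and 37, DESeq2 1588 and 701, limma on log2(FPKM + 0.1) 323 and 319, and limma on log2(FPKM + 1) 364 lower. Leaving out samples gave 26 to 1098 higher and 2 to 334 lower, with 26 and 2 without vector sample 1, 31 and 2 without vector sample 3, 62 and 6 without circEZH2_005 sample 2, 136 and 33 without circEZH2_005 sample 3, and 1098 and 334 without vector sample 2. Of the list genes, against 2 higher and 3 lower, no filter gave 1 higher, a mean of at least 2 FPKM 5 and 6, DESeq2 9 and 10, median-of-ratios scaling 5 lower, limma 8 lower with either pseudocount, and leaving out samples 0 to 9 higher and 0 to 8 lower. Slc9a2 passed in 11 of 13 alternatives, Slc5a3 in 9 of 12, Lipe and Hspa4l in 8 of 13 and Prdx6 in 7 of 13, with adjusted p-values up to 0.085, 0.108, 0.129, 0.122 and 0.134 in that order, so these calls depend on single samples or the method. The cause was not tested.

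Samples with the same replicate number did not deviate together, with correlations of -0.14, -0.02 and 0.04. Samples with different numbers had correlations from -0.13 to 0.15. These values cannot tell whether the samples were paired by design, which the labels do not give. With the number as a replicate block, 241 genes were called higher and 36 lower, 1 list gene was lower (the adjusted p of Hspa4l was 0.059 and that of Prdx6 0.075), and Aqp4 and Aqp7 were at -1.31 and 1.76.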
